A study of Mus musculus with 20 samples.

Results

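Maturation of mouse oocytes labelled Btg4-/- was followed from the germinal vesicle (GV) oocyte, arrested in the first meiotic prophase, to the mature egg, which waits in the metaphase of meiosis II (MII). The genes described are the 9771 of 23309 measured symbols whose mean reached 1 FPKM (fragments scaled to transcript length and to the mapped total of the library) in the 2 GV or the 2 MII libraries of that genotype. Of these, 7684 reached 1 FPKM at both stages, 830 at GV alone and 1257 at MII alone. At the edge of this rule stand Plaur, with a higher group mean of 1.0001 FPKM, just inside, and Syncrip, with 0.99992, just outside. The series holds 20 libraries, 16 from an experiment on Btg4 and 4 from an experiment on Erk. Compared here are 4 groups of 2 libraries: GV and MII oocytes labelled Btg4-/- and GV and MII oocytes of wild type, all of the ICR strain. The females of both genotypes were 21 to 23 days old and had been injected with PMSG and hCG, the gonadotropins used to induce follicle growth and ovulation. Each sample pooled 60 oocytes. Separate animals are not named for the replicates, so the spread behind each p-value may be technical. The labels do not describe the deleted allele.

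Transcription is silent in the fully grown oocyte, and its transcript levels then change through decay, storage and changes in poly(A) tail length. BTG4 is an adaptor protein that links the CCR4-NOT deadenylase, which shortens poly(A) tails, to the cap-binding translation machinery, and oocytes without it are known for retaining maternal mRNA. In the opposite process, the protein CPEB1 binds a U-rich element near the end of stored mRNAs and directs lengthening of their tails as the oocyte matures. FPKM is a share of the sequenced RNA, not an amount per oocyte, and the libraries were made from purified mRNA. For cells other than the 60 pooled oocytes, fewer cells and less RNA per cell cannot be told apart. Neither can less mRNA and shorter tails where mRNA is bound by its tail.

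The targeted gene was measured first. Btg4 (chromosome 9, 50924106 to 50927805, mm9) stood at 1980 and 1881 FPKM in the GV libraries labelled Btg4-/- and at 172 and 191 FPKM at MII, against 1450 and 1673 at GV and 415 and 406 at MII in wild type. It was thus abundant in the labelled Btg4-/- GV libraries, and a value for the whole gene does not tell a partial deletion, so groups are called by their labels throughout. The 4 labelled Btg4-/- libraries summed to 438664 to 491035 FPKM, with 8385 to 8937 symbols at 1 FPKM or more, and Pearson r between the replicates across genes on the log2 scale was 0.979 at each stage. The deposited intervals correspond to a median of 91 to 115 fragments behind a value of 8 to 12 FPKM in these 4 libraries. All 14 oocyte-defining markers were at 1 FPKM or more in each group. The 22 granulosa and cumulus cell markers summed to 93.9 and 96.7 FPKM at GV in labelled Btg4-/- and to 5.19 and 5.41 at MII (84.9 and 97.0, then 15.8 and 9.16, in wild type). In the labelled Btg4-/- GV libraries 9 of them reached 1 FPKM and 6, among them Ptx3, Pgr, Areg and Cd44, were listed at 0. Their part in any fall reported below was not tested. Blood cell markers (9 genes) summed to at most 4 FPKM in the labelled Btg4-/- libraries but to 85.0 and 50.3 in the wild-type MII libraries. The 10 ovarian stroma markers gave no member. Of 10 sperm markers 2 were members, 1 that rose and 1 that did not pass. Of the 31 genes of the 2-cell embryonic activation list 6 were members, of which 2 rose and 1 fell.

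Between GV and MII, 3331 of the 9771 members rose and 2192 fell in oocytes labelled Btg4-/-, and 4248 did not pass (limma on log2(FPKM + 1), adjusted p under 0.05). Of the members 34.1% rose and 22.4% fell, and the counts of each list below are to be read beside these shares. Over all 12311 genes tested the shares were 27.3% higher and 18.1% lower. A gene that entered through a single stage had to differ between stages, so the 7684 members present at both stages were counted separately: 2691 rose and 1730 fell. Changes of 4-fold or more that passed numbered 852 upward and 683 downward. Both MII libraries lay above both GV libraries for 4758 members and below them for 3197, against 42.5% and 29.4% of all genes tested. The median change of the members was 0.30 on the log2 scale. The balance of rises and falls depends on scaling: with median-of-ratios size factors the median moved by -0.32 to -0.01, and 2610 members rose and 2961 fell, so that 46.8% of the called members were higher instead of 60.3%. Changes below are on the scale as deposited, and the log2(FPKM + 1) scale understates changes of genes near 1 FPKM.

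The same stages of the Erk experiment, with 1 library a group and so no replicate check, moved differently. Members that rose in labelled Btg4-/- had a median MII minus GV difference of -1.79 in the Erk experiment's wild type and -0.59 in its Erk-/- oocytes, and members that fell had medians of 0.51 and 0.52. Across the 9771 members Pearson r between the change in labelled Btg4-/- and that in the Erk experiment was -0.331 for its wild type and -0.213 for Erk-/-. The wild type of the Btg4 experiment gave 0.157 and 0.133. Btg4 stood at 216 FPKM at GV and 2987 at MII in the Erk experiment's wild type, the reverse of its order in both genotypes of the Btg4 experiment. Ldhb stood at 6619 FPKM at GV and 2389 at MII there, against 51.2 and 2895 FPKM (means) in the wild type of the Btg4 experiment. Across members, Pearson r of the levels in labelled Btg4-/- with the Erk experiment's wild type at GV was 0.593 for GV and 0.675 for MII, and with its MII library 0.518 for GV and 0.396 for MII. Both stages thus stand apart between the experiments, and the labelled Btg4-/- MII group was closer to the other experiment's GV library than to its MII library. Whether stage labels were exchanged in either experiment was not tested, and an exchange in the Btg4 experiment would turn every rise and fall given here. Directions follow the labels of the Btg4 experiment.

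The largest falls included oocyte-specific genes and a gene of RNA processing. Obox1, an oocyte-specific homeobox gene, went from 1611 and 1497 FPKM at GV to 24.6 and 31.1 at MII in the labelled Btg4-/- libraries (log2 change -5.76, SE 0.12, adjusted p = 4.31e-12). Its relative Obox2 went from 2910 and 2674 to 49.8 and 56.5 FPKM. Both fell less in wild type, to means of 181 and 259 FPKM. Obox genes are near-identical copies among which reads can be split, so single values are uncertain. Magoh, a core protein of the exon junction complex, went from 1239 and 1050 FPKM to 27.3 and 20.1 (-5.55, SE 0.16, adjusted p = 6.66e-11). Sft2d1, a vesicle transport gene, went from 752 and 653 to 11.2 and 13.6 FPKM, while wild type kept 136 and 147 FPKM at MII. In each of these genes the GV and MII libraries were far apart, with no overlap. Upp1, which encodes uridine phosphorylase, went from 399 and 329 to 11.1 and 7.55 FPKM. Tcl1b3, of an oocyte-expressed multicopy family, went from 393 and 325 to 8.06 and 7.39 FPKM. C1galt1c1, a chaperone of mucin-type glycosylation, was at 62.7 and 60.0 FPKM at GV and at 0.681 and 0 at MII. Inhba, an inhibin and activin subunit and one of the granulosa markers, was at 36.2 and 46.5 FPKM at GV and listed at 0 in both MII libraries. Il20ra, a cytokine receptor subunit, was at 40.3 and 45.1 FPKM at GV in labelled Btg4-/-, and listed at 0 at MII and in all 4 wild-type oocyte libraries. The plot of the largest changes by library shows the narrow spread of the replicates beside these changes.

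**Figure D1:**
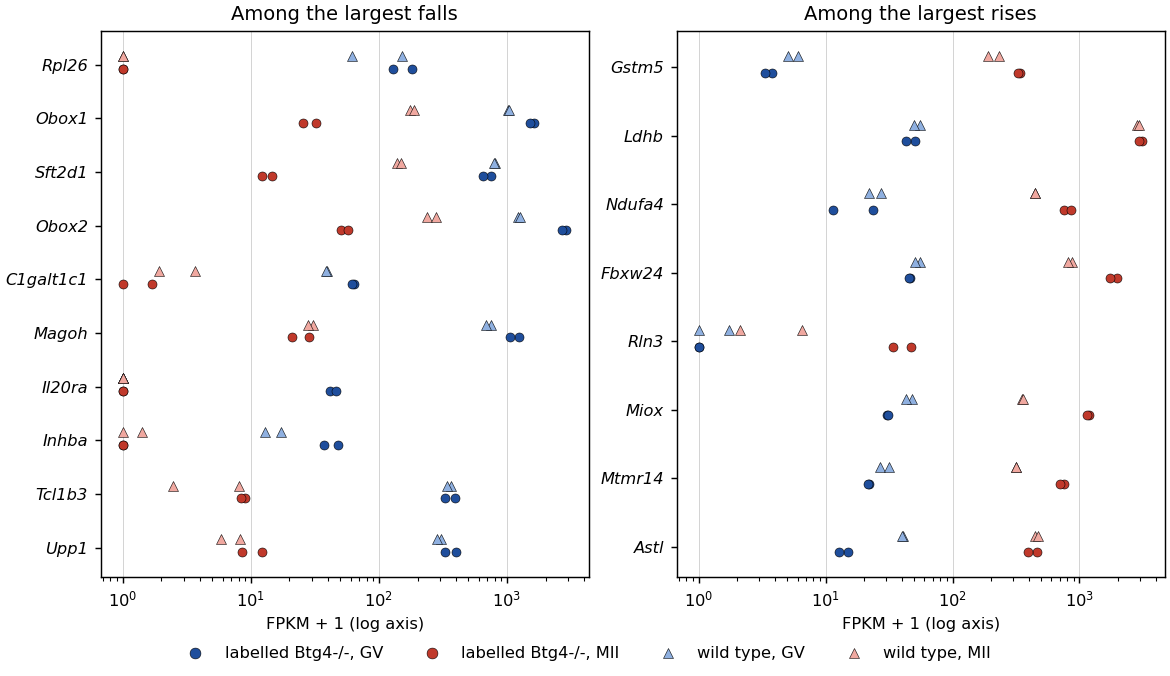
FPKM + 1 (log axis) in each GV and MII library of genes described in the text that were among the largest falls and rises from GV to MII in oocytes labelled Btg4-/- (circles), with the wild-type libraries of the same genes (triangles). The GV and MII circles do not overlap for any gene, which the rule of choice required, and the wild-type triangles of Il20ra lie at the left edge, where the gene is listed at 0.

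The largest rises included metabolic and oocyte-specific genes. Ldhb, the heart-type lactate dehydrogenase subunit, went from 49.8 and 41.8 FPKM at GV to 3133 and 2958 at MII in the labelled Btg4-/- libraries (log2 change 6.03, SE 0.14, adjusted p = 9.16e-12). Ldhb rose in wild type as well, with 54.1 and 48.3 FPKM at GV and 2830 and 2960 at MII, and the difference between the changes did not pass (0.23, SE 0.19, adjusted p = 0.37). Gstm5, a glutathione transferase, went from 2.76 and 2.34 to 336 and 326 FPKM (6.55, SE 0.18, adjusted p = 5.57e-11), against a wild-type MII mean of 210 FPKM. Fbxw24, of an F-box family expanded in mouse oocytes, went from 44.9 and 44.5 to 1958 and 1750 FPKM and reached 840 FPKM in wild type. Miox, the inositol oxygenase, went from 29.3 and 29.9 to 1184 and 1149 FPKM, above the wild-type MII mean of 355. Mtmr14, a phosphoinositide phosphatase, went from 21.1 and 20.7 to 754 and 705 FPKM, above the wild-type mean of 317. Astl, a protease of cortical granules, went from 13.9 and 11.7 to 461 and 394 FPKM. For Gstm5, Fbxw24, Miox, Mtmr14 and Astl the rise was larger in labelled Btg4-/- than in wild type (difference of changes 1.31, 1.35, 2.29, 1.61 and 1.44, each with an adjusted p under 0.05). Rln3, a relaxin-family hormone gene, was listed at 0 in both labelled Btg4-/- GV libraries and stood at 33.0 and 45.8 FPKM at MII.

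Some highly expressed members did not pass. H3f3a, which encodes the replacement histone H3.3, stood at 1550 and 1299 FPKM at GV and 1311 and 1301 at MII. Plac8 stood at 2144 and 1729 and then 1884 and 1701 FPKM, where wild type fell to a mean of 570. H3f3a kept this result in 9 of 12 alternatives and Plac8 in 10, with log2 changes down to -0.53 and -0.52. Psma7, a proteasome subunit, had MII values of 1314 and 2468 FPKM that differed more between replicates than from the GV values of 1315 and 1126. Rn45s, the ribosomal RNA precursor left in these mRNA libraries, was at 8251 and 15507 FPKM at GV and 11696 and 10929 at MII and did not pass. Its GV replicates differed, and without GV replicate 2 its log2 change was 0.45. Malat1, a nuclear long non-coding RNA, was at 38.3 and 44.5 FPKM at GV in labelled Btg4-/- and 0.326 and 0.400 at MII (-4.95, SE 0.25, adjusted p = 7.55e-09), while all wild-type oocyte libraries lay between 2.25 and 3.78 FPKM.

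Within the deadenylation machinery, the deadenylase subunit genes Cnot7, Cnot8 and Cnot6l fell. The list of CCR4-NOT subunits and BTG/TOB adaptors had 17 members, of which 7 fell (41.2%), 4 rose (23.5%) and 6 did not pass. Of all members 22.4% fell and 34.1% rose. The median change of the list was -0.53 against 0.30 over all members. Cnot7, a deadenylase subunit bound by BTG4, went from 667 and 708 FPKM to 36.7 and 43.7 (log2 change -4.07, SE 0.12, adjusted p = 9.41e-11) and its paralog Cnot8 from 109 and 89.3 to 13.8 and 12.4 FPKM. Wild type ended at means of 76.2 and 7.74 FPKM for these genes. Cnot6l, another deadenylase subunit, showed opposite directions: it went from 74.1 and 65.1 to 25.4 and 31.1 FPKM in labelled Btg4-/- and from 68.5 and 80.1 to 249 and 266 in wild type (difference of changes -3.06, SE 0.23, adjusted p = 6.11e-07). Tob2, an adaptor related to BTG4, rose from 5.89 and 10.9 to 23.2 and 26.8 FPKM. The scaffold subunit Cnot3 was at 21.5 and 15.1 FPKM at GV and at 17.2 and 14.9 at MII and did not pass. Other decay factors were mixed, with 9 rises, 7 falls and 12 members not passing of 28. The decapping activator Dcp1a went from 63.8 and 63.5 to 13.4 and 14.9 FPKM (-2.10, adjusted p = 5.14e-08), and Lsm1, of the ring that protects deadenylated mRNA ends, from 23.6 and 17.8 to 1.10 and 0.843. The decapping enzyme gene Dcp2 was at 8.57 and 9.74 and then 13.1 and 19.0 FPKM (0.73, adjusted p = 0.0059), and the call was lost in 4 of 12 alternatives, with 0.47 without MII replicate 2. The nuclease gene Parn rose from 10.4 and 12.7 to 33.9 and 32.0 FPKM, and the terminal uridylyltransferase Tut1 from 3.20 and 3.36 to 25.2 and 25.4. In wild type neither of these changed past the threshold. The median of this list, 0.16, turned to -0.16 with median-of-ratios scaling.

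The list of mRNAs known to be stored in a dormant state and recruited during maturation moved mostly downward. Of its 24 members 16 fell (66.7%), 2 rose (8.33%) and 6 did not pass, against 22.4% and 34.1% of all members. The median change of the list was -1.67 in labelled Btg4-/- and -0.88 in wild type. The change was more negative in labelled Btg4-/- for 16 of the 24 and more positive for 3. Over all genes tested the change was more positive in labelled Btg4-/- for 26.5% and more negative for 16%. Orc6, a subunit of the origin recognition complex, went from 356 and 304 to 7.85 and 12.2 FPKM (log2 change -4.93, SE 0.18, adjusted p = 4.20e-10), and the spindle checkpoint gene Mad2l1 from 261 and 235 to 8.45 and 12.0. Plat, tissue plasminogen activator, went from 844 and 781 to 47.9 and 52.7 FPKM but fell further in wild type, to a mean of 27.6. Mos, the kinase that activates the MAP kinase cascade in the oocyte, went from 1198 and 1036 to 241 and 227 FPKM. Cyclin B1 (Ccnb1) went from 932 and 818 to 234 and 203 FPKM, and cyclin B2 (Ccnb2) from 38.0 and 38.5 to 8.29 and 10.8, where wild type rose to 71.2 and 74.2 (difference of changes for Ccnb2 -2.74, SE 0.38, adjusted p = 8.01e-05). Slbp, the histone mRNA binding protein, went from 146 and 136 to 54.4 and 47.3 FPKM, with no call in wild type. The DNA demethylase Tet3 went from 9.24 and 8.24 to 5.88 and 6.08 FPKM in labelled Btg4-/- and from a mean of 16.7 to 68.6 and 70.2 in wild type, and the call of its fall was lost in 6 of 12 alternatives. Only the rises of Spin1 and Dcp2 passed in this list, and neither passed with median-of-ratios scaling, where Spin1 turned from 0.36 to -0.05 and Dcp2 went from 0.73 to 0.34.

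Factors that bind or store mRNA were called in both directions. Of the 32 members of the cytoplasmic polyadenylation and storage list 12 rose (37.5%) and 8 fell (25%), against 34.1% and 22.4% of all members. The median change of the list was -0.22 in labelled Btg4-/- and 0.31 in wild type, against 0.30 over all members in labelled Btg4-/-. The difference of changes was negative for 15 of the 32 and positive for 10. Zar1, an oocyte RNA-binding protein of the store of maternal mRNA, went from 314 and 254 to 3196 and 2742 FPKM (log2 change 3.39, SE 0.16, adjusted p = 3.95e-09), close to wild type with 2414 and 2520. Its paralog Zar1l went from 414 and 385 to 838 and 746 FPKM, whereas wild type fell from 353 and 362 to 33.9 and 27.6 (difference of changes 4.49, SE 0.39, adjusted p = 1.8e-06). The rise of Zar1l did not pass with median-of-ratios scaling (0.57). The germ-cell Y-box protein gene Ybx2 rose from 73.2 and 53.9 to 314 and 296 FPKM, the oocyte poly(A)-binding protein gene Pabpc1l from 31.7 and 32.7 to 173 and 152, and Cpeb1 from 72.4 and 86.3 to 150 and 167. None of these 3 changed past the threshold in wild type. Pabpn1l, an oocyte poly(A)-binding protein gene, went the other way, from 926 and 858 to 48.5 and 64.8 FPKM, and Paip1, a partner of poly(A)-binding protein, from 182 and 199 to 16.7 and 17.6.

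To set these changes beside the tail-lengthening element, the ends of the transcripts were read. The element was searched as the hexamer TTTTAT, on the transcript strand only, in the last 100 bases of the longest protein-coding transcript of each gene. This could be done for the 8843 members with a 3′ UTR that long in GENCODE M21 (GRCm38), and 15.3% of them held it, against 14.0% of all 18832 coding transcripts with such a window. Below, stretches of 30 bases are shown around the hexamer for 6 genes that fell, with the hexamer and the nuclear polyadenylation signal AATAAA in capitals where they are whole, and around AATAAA for 2 genes that fell (Oosp1 and Plat) and 5 that rose, none of which has TTTTAT in the window. They were chosen after their values were seen and do not show how often the hexamer occurs. It was in 24.3% of genes that fell and in 10.1% of genes that rose. Hat1, Ccnb1, Mos and Obox5, not shown, also fell and have no TTTTAT in the window. The coordinates are GRCm38, not the mm9 of the expression files.
Cnot7 (chr8:40493036-40493065, minus strand, fell by 4.07): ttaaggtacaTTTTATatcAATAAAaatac
Orc6 (chr8:85308249-85308278, plus strand, fell by 4.93): tcaagcccAATAAAtgttatTTTTATatgc
Magoh (chr4:107887352-107887381, plus strand, fell by 5.55): ggcaatTTTTATaaacAATAAAtgatgatc
Btg4 (chr9:51119803-51119832, plus strand, fell by 3.41): atccctTTTTATgtctttttaaaagtttga
Depdc7 (chr2:104721784-104721813, minus strand, fell by 4.61): tAATAAAaaaatTTTTATatgtgtcaaaaa
Nup54 (chr5:92415540-92415569, minus strand, fell by 3.52): AATAAAttgttaatttgtaaTTTTATgtaa
Oosp1 (chr19:11667529-11667558, minus strand, fell by 4.57): ttaaagAATAAAaatttcccattagtgccg
Plat (chr8:22782810-22782839, plus strand, fell by 3.99): ttaaatAATAAAttcagaggtatttttcac
Ldhb (chr6:142490249-142490278, minus strand, log2 change 6.03): tgatcaAATAAAgttagcaattgcagcata
Padi6 (chr4:140727355-140727384, minus strand, log2 change 4.86): agagccAATAAAgcatggtattctgaatgt
Npm2 (chr14:70647302-70647331, minus strand, log2 change 4.69): ctagggccacAATAAAatttgcatgatcag
Cox7c (chr13:86044821-86044850, minus strand, log2 change 4.42): tagaaaaaattgtaAATAAActaatgacat
Zp2 (chr7:120126772-120126801, minus strand, log2 change 2.63): tctttaaactctAATAAAattatcctctgg

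The hexamer was in 24.3% of the 1990 genes that fell in labelled Btg4-/-, in 14.7% of the 3746 that did not pass and in 10.1% of the 3107 that rose. Classes made from the wild-type change did not differ in this way: 15.6% of genes that fell, 15.1% of genes that did not pass and 15% of genes that rose held it. The order in labelled Btg4-/- was present whatever the wild-type call: among genes that fell in labelled Btg4-/- the share was 23.7%, 26.6% and 22.6% for those that fell, did not pass and rose in wild type, and among genes that rose it was 8.76%, 7.61% and 12.5%. The 1349 genes with the hexamer had a median change of -0.21 in labelled Btg4-/-, against 0.42 for the 7494 without, while the wild-type medians were -0.13 and -0.10. Of the genes with it, 35.9% fell and 23.2% rose in labelled Btg4-/-. Other words of the same letters, apart from AATAAA, followed the same order to differing extents. TTTTTA was in 29.9% of genes that fell and 10.9% of those that rose, TATTTT in 25.8% and 13.3%, and TTATTT in 17.6% and 11.2%. The longer form TTTTAAT was in 10% and 2.80%. AATAAA was in 69.2% of genes that fell, 63.6% of those that did not pass and 66.9% of those that rose. The ends of genes that fell were also richer in A and T, with a median GC content of 32.0% against 38.0% in genes that rose, and the part of base composition was not tested beyond a division of the genes by GC content. Within the lowest, middle and highest GC groups of equal size the median change was -0.46, 0.01 and 0.42 with the hexamer and 0.08, 0.44 and 0.60 without. A match is a description of letters and not of a bound site.

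**Figure D2:**
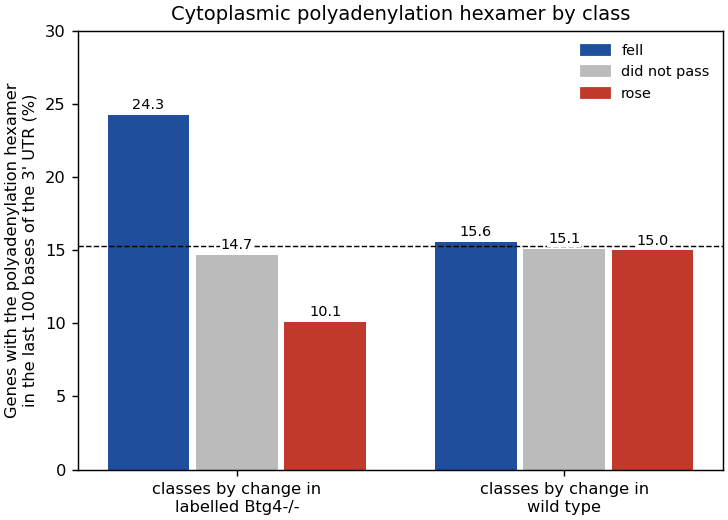
Share of genes (%) whose last 100 bases of 3′ UTR hold the cytoplasmic polyadenylation hexamer, for genes that fell, did not pass or rose from GV to MII, with classes made in labelled Btg4-/- (left) or in wild type (right), and the dashed line at 15.3% of all 8843 genes. The bars step down from 24.3% to 10.1% on the left and stay between 15% and 15.6% on the right.

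Genes of the egg coat and of secreted oocyte factors mostly rose. Of 12 members 8 rose and 4 fell, with a median change of 1.65. The zona pellucida genes Zp1, Zp2 and Zp3, which encode the egg coat glycoproteins, rose in labelled Btg4-/-, and the difference from wild type passed for each. Zp2 went from 119 and 98.5 to 693 and 654 FPKM (log2 change 2.63, SE 0.13, adjusted p = 7.54e-09), where wild type went from 111 and 110 to 74.6 and 55.9 (difference of changes 3.39, SE 0.19, adjusted p = 7.82e-08). Zp3 went from 118 and 89.0 to 772 and 697 FPKM, and wild type stayed between 152 and 166. Zp1 went from 100 and 90.1 to 286 and 243 FPKM. The growth factor genes Bmp15 and Gdf9 rose in both genotypes. Bmp15 went from 217 and 224 to 1185 and 1208 FPKM, with a difference of changes of 0.02 that did not pass (SE 0.18, adjusted p = 0.974). Gdf9 went from 531 and 446 to 941 and 838 FPKM, against wild-type means of 957 and 1959. Oosp1, an oocyte-secreted protein gene, went from 10402 and 9068 to 435 and 383 FPKM, against a wild-type MII mean of 1414. Fgf8 went from 260 and 214 to 123 and 119 FPKM, against 13.9 and 19.5 in wild type at MII.

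Maternal effect genes, which act through RNA or protein stored in the egg, were the list with the largest share of rises among those with 10 or more members: 27 of 37 rose, 4 fell and 6 did not pass, with medians of 1.37 in labelled Btg4-/- and 1.06 in wild type. With median-of-ratios scaling 23 rose and 7 fell. Several members of the subcortical maternal complex, an assembly beneath the oocyte membrane, rose far more in labelled Btg4-/-. Padi6 went from 65.3 and 56.5 to 1825 and 1767 FPKM (log2 change 4.86, SE 0.13, adjusted p = 6.01e-11), where wild type reached 227 and 182. Khdc3 went from 125 and 124 to 2139 and 2187 FPKM, where wild type fell from 206 and 201 to 105 and 119 (difference of changes 4.97, SE 0.25, adjusted p = 4.15e-08). Tle6 went from 56.0 and 43.3 to 326 and 293 FPKM, and Nlrp5 from 1.70 and 3.08 to 46.3 and 63.3. Nlrp5 reached 40.5 and 39.2 in wild type, and the difference of its changes did not pass (adjusted p = 0.493). Npm2, the oocyte nucleoplasmin, went from 42.0 and 33.2 to 885 and 1106 FPKM, and Nlrp14 from 29.7 and 33.4 to 575 and 738. Dppa3, which protects the maternal genome from demethylation, rose in both genotypes, to 2022 and 1986 FPKM in labelled Btg4-/- and 2792 and 3120 in wild type. The transcription factor gene Figla went from 6.33 and 4.33 to 77.4 and 71.7 FPKM and from 14.9 and 15.8 to 4.66 and 3.27 in wild type. Zbed3, at 1202 and 987 and then 1032 and 946 FPKM, did not pass, while wild type rose to 5564 and 6301. Sall4 fell from 13.0 and 11.8 to 3.60 and 3.51 FPKM, and Dnmt1, the maintenance DNA methyltransferase, was at 39.0 and 22.2 and then 16.4 and 18.7 FPKM (-0.72, adjusted p = 0.0292), while both rose in wild type. The call of Dnmt1 was lost in 4 of 12 alternatives, with a change of -0.32 without GV replicate 1.

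Of 50 members of the list of meiotic kinases, cyclins and anaphase regulators 20 rose (40%), 15 fell (30%) and 15 did not pass, near the 34.1% and 22.4% of all members, with a median of 0.23 that turned to -0.18 with median-of-ratios scaling. Pttg1, securin, went from 98.7 and 74.6 to 2468 and 2081 FPKM, and wild type reached 3049 and 3022. Mapk3, which encodes ERK1, went from 13.8 and 9.66 to 358 and 318 FPKM (log2 change 4.75, SE 0.17, adjusted p = 3.52e-10), above 98.3 and 105 in wild type. The genes of its 2 upstream kinases moved apart: Map2k2 went from 6.36 and 5.79 to 84.6 and 71.1 FPKM and Map2k1 from 89.9 and 77.3 to 21.6 and 20.7. In wild type Map2k1 stayed at means of 98.8 and 104 FPKM. The anaphase activator Cdc20 fell from 60.1 and 55.6 to 4.58 and 3.46 FPKM. Polo-like kinase Plk1 rose in both genotypes, to 171 and 160 FPKM in labelled Btg4-/- and 215 and 218 in wild type.

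Genes of cohesin, condensin and the synaptonemal complex had a median change of -0.36 in labelled Btg4-/- and 1.05 in wild type. Of 22 members 5 rose, 10 fell and 7 did not pass in labelled Btg4-/-, and the change was more negative there for 12 and more positive for 2. The condensin subunit genes Ncaph and Ncaph2 rose in labelled Btg4-/-, with log2 changes of 2.27 and 2.04. Ncaph rose by 1.72 in wild type, and the difference of its changes did not pass (adjusted p = 0.241). Ncaph2 fell by 0.83 in wild type (difference of changes 2.86, SE 0.41, adjusted p = 0.000115). Smc4, a condensin subunit, rose from 1.05 and 2.20 FPKM to 3 and 4.88 in labelled Btg4-/-, a call lost in 5 of 12 alternatives (0.60 without GV replicate 1 and 0.64 without MII replicate 2), and went from 2.09 and 1.81 to 62.5 and 86.0 in wild type (difference of changes -3.74, SE 0.39, adjusted p = 9.22e-06). Topoisomerase I (Top1) went from 6.34 and 5.84 to 4.29 and 3.87 FPKM, against a rise from 6.68 and 7.50 to 103 and 119 in wild type, and the call of its fall was lost in 5 of 12 alternatives. Esco2, the cohesin acetyltransferase, went from 19.7 and 21.5 to 8.76 and 11.4 FPKM, against 90.6 and 120 in wild type at MII, and the call of its fall was lost in 2 of 12 alternatives. Sycp3, of the synaptonemal complex, did not pass in labelled Btg4-/- at 0.444 to 1.40 FPKM and reached 36.7 and 50.9 in wild type. Tex12 fell in both genotypes, from 127 and 109 to 5.41 and 7.55 FPKM in labelled Btg4-/-. Of 33 spindle members 9 rose (27.3%), 8 fell (24.2%) and 16 did not pass, against 34.1% and 22.4% of all members. Their median of 0.03 turned to -0.32 with median-of-ratios scaling. Birc5, survivin of the chromosomal passenger complex, went from 152 and 124 to 1090 and 1113 FPKM, against 253 and 230 in wild type. Mapre1, a microtubule end-binding protein gene, went from 47.5 and 40.6 to 20.1 and 20.9 FPKM, against a rise to 142 and 151 in wild type.

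Ribosomal protein genes fell in labelled Btg4-/-, by less than in wild type. Of 49 large-subunit members 28 fell, 9 rose and 12 did not pass, with a median change of -0.76 against -3.25 in wild type, and the difference of changes was positive for 39 and negative for 0. Of 33 small-subunit members 17 fell, 4 rose and 12 did not pass (medians -0.85 and -3.29), with 24 positive differences and 0 negative. Rps15 went from 1581 and 1253 to 117 and 94.9 FPKM and to 11.8 and 12.5 in wild type. Rpl27 did not pass in labelled Btg4-/-, at 1284 and 983 and then 1130 and 941 FPKM, and fell from 1000 and 975 to 112 and 100 in wild type (difference of changes 3.08, SE 0.23, adjusted p = 6.65e-07). Rpsa was at 226 and 166 and then 225 and 217 FPKM, and ended at 5.6 and 3.62 in wild type. Rpl5 and Rpl11, whose proteins bind 5S ribosomal RNA and MDM2, rose in labelled Btg4-/-: Rpl5 from 27.5 and 22.6 to 267 and 297 FPKM and Rpl11 from 174 and 161 to 1136 and 1158. Rps12 rose from 697 and 536 to 1766 and 1950 FPKM. Reads of these genes can be split with processed pseudogenes, and values such as that of Rpl26 (179 and 127 FPKM at GV, under 0.01 at MII in both genotypes) are uncertain for that reason. Ribosome assembly genes rose in 18 of 38 members and fell in 5 (median 0.59). Imp3, of the small-subunit processome, went from 16.8 and 13.5 to 231 and 209 FPKM, and nucleophosmin Npm1 from 112 and 86.5 to 17.6 and 18.7, against a rise to 178 and 238 in wild type.

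Nuclear genes of mitochondrial proteins were called in both directions in labelled Btg4-/- and mostly fell in wild type. Complex I had 12 rises (32.4%), 9 falls (24.3%) and 16 members not passing of 37, near the 34.1% and 22.4% of all members. Its median was 0.31, turned to -0.10 with median-of-ratios scaling, against -2.18 in wild type. The difference of changes of complex I was positive for 25 and negative for 0. Complexes II, III and IV had 12 rises and 4 falls of 25 (medians 0.54 and -1.93), with 18 positive differences and 0 negative. ATP synthase had 5 rises and 7 falls of 16 (medians -0.46 and -2.18), with 13 positive differences and 0 negative. Mitochondrial ribosomal proteins had 20 rises and 21 falls of 74 (medians -0.28 and -2.06), or 11 rises and 35 falls with median-of-ratios scaling (median -0.69), with 50 positive differences and 1 negative. Cox7c, a cytochrome c oxidase subunit, had the largest positive difference of changes among the genes named by rule: it went from 92.4 and 72.2 to 1785 and 1753 FPKM in labelled Btg4-/- and from 168 and 184 to 15.3 and 4.98 in wild type (8.58, SE 0.47, adjusted p = 6.49e-08). Sdhd, of succinate dehydrogenase, was at 586 and 506 and then 712 and 696 FPKM (0.37, a call lost in 4 of 12 alternatives and -0.04 with median-of-ratios scaling) and fell to 10.6 and 10.1 in wild type. Cox6c rose in both genotypes, from 35.3 and 31.4 to 777 and 720 FPKM in labelled Btg4-/-, and Ndufa4 went from 22.4 and 10.4 to 759 and 863. Uqcrq fell in both, from 1894 and 1601 to 99.9 and 159 FPKM and from a mean of 1613 to one of 27.9 in wild type. Ndufv1 went from 245 and 196 to 109 and 95.0 FPKM, against 3.60 and 4.93 in wild type at MII. Mrps6 went from 8.11 and 8.33 to 84.1 and 93.7 FPKM, against a fall from 16.3 and 12.5 to 4.48 and 2.89 in wild type.

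**Figure D3:**
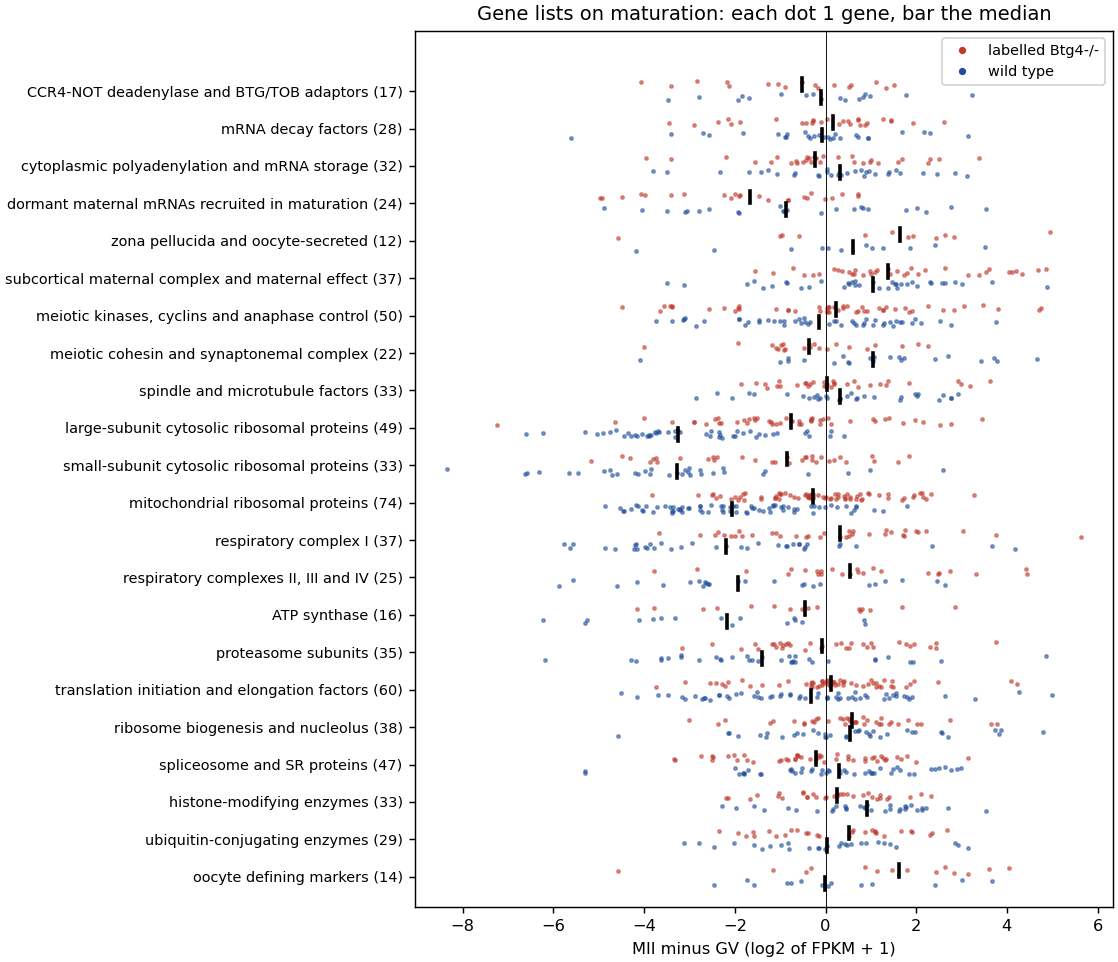
Change from GV to MII on the log2(FPKM + 1) scale for the members of each list with 10 or more members (number in parentheses), with labelled Btg4-/- in red, wild type in blue, 1 dot per gene and a bar at the median. The red medians of the ribosomal, mitochondrial and proteasome lists lie right of the blue ones (-0.76 against -3.25 for the large ribosomal subunit), and those of the dormant and cohesin lists lie left of them.

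Genes of protein synthesis and turnover also changed in both directions. Of 35 proteasome members 13 rose and 13 fell (37.1% each), against 34.1% and 22.4% of all members. Their medians were -0.07 in labelled Btg4-/- and -1.39 in wild type. The difference of changes was positive for 20 of them and negative for 4. Psmb7 went from 293 and 248 to 1295 and 1379 FPKM, against a fall from 216 and 199 to 12.2 and 20.3 in wild type (difference of changes 5.94, SE 0.30, adjusted p = 3.39e-08). Psmb1 went from 948 and 872 to 479 and 458 FPKM and to 8.59 and 8.50 in wild type. Psmc6, an ATPase of the regulatory particle, went from 31.4 and 29.3 to 2.61 and 2.39 FPKM and did not pass in wild type. Of 60 translation factors 20 rose (33.3%), 11 fell (18.3%) and 29 did not pass, near the shares of all members, with a median of 0.12 that turned to -0.22 with median-of-ratios scaling. Eif4a2, an RNA helicase of initiation, went from 160 and 153 to 11.7 and 10 FPKM (log2 change -3.74, SE 0.14, adjusted p = 6.46e-10), while wild type was at 126 and 134 and then 107 and 121. Eif1b went from 120 and 88.6 to 1844 and 1714 FPKM, above the wild-type MII mean of 666. Of 29 ubiquitin-conjugating enzymes 13 rose and 10 fell: Ube2s, which extends chains for the anaphase-promoting complex, rose from 717 and 594 to 2535 and 2374 FPKM and Ube2t fell from 1512 and 1314 to 288 and 267.

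Splicing and chromatin genes leaned toward a more negative change in labelled Btg4-/-. Of 47 spliceosome and SR protein members 15 rose (31.9%) and 16 fell (34.0%), against 34.1% and 22.4% of all members. Their medians were -0.21 in labelled Btg4-/- and 0.30 in wild type. The difference of changes was negative for 20 and positive for 9. Hnrnpk, an RNA-binding protein gene, went from 329 and 304 to 30.5 and 29.7 FPKM, and wild type ended at 105 and 107. Snrpc, of the U1 particle, went from 474 and 413 to 123 and 128 FPKM and fell further in wild type, to 13.6 and 5.44. Prpf31, of the same list, went the other way, from 1.92 and 1.56 to 21.1 and 25.3 FPKM, with no call in wild type (difference of changes 3.23, SE 0.43, adjusted p = 6.1e-05). Of 33 histone-modifying enzymes 10 rose (30.3%) and 7 fell (21.2%), near the shares of all members. Their medians were 0.25 in labelled Btg4-/-, turned to -0.15 with median-of-ratios scaling, and 0.91 in wild type. The difference of changes was negative for 12 of them and positive for 3. Hat1, a histone acetyltransferase, went from 13.2 and 18.1 to 2.37 and 2.81 FPKM in labelled Btg4-/- and from 9.68 and 7.55 to 60.0 and 61.4 in wild type (difference of changes -4.89, SE 0.39, adjusted p = 9.49e-07). Ezh2, the Polycomb methyltransferase, did not pass in labelled Btg4-/- at 16 and 31 and then 13.9 and 19.7 FPKM, and reached 218 and 385 in wild type. Prmt5 and Kat7 rose in both genotypes, by 2.32 and 2.11 in labelled Btg4-/- and by 1.88 and 2.14 in wild type. Kat8 was at 66.8 and 58.3 and then 69.7 and 80.3 FPKM, and fell from 48.7 and 48.5 to 10.5 and 7.97 in wild type.

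Set beside wild-type maturation, which shares no library with it, the maturation of oocytes labelled Btg4-/- kept part of the same changes. Wild type had 10067 genes at 1 FPKM or more at either stage, and 25.2% of all genes tested rose and 28.5% fell in it. Of the 2192 members that fell in labelled Btg4-/-, 61.1% also fell in wild type, 12.4% rose there and 26.5% did not pass. Of the 3331 that rose, 44.6% also rose in wild type, 19.7% fell there and 35.8% did not pass. Seen from wild type, 2782 members fell 2-fold or more there, and of these 41.3% fell, 16.5% rose and 42.2% did not pass in labelled Btg4-/-, with medians of -0.50 in labelled Btg4-/- and -1.93 in wild type. Of the 1937 members that rose 2-fold or more in wild type, 57.5% rose and 7.59% fell in labelled Btg4-/-. The wild-type change chose these sets, so their wild-type medians are a description only. The difference of changes itself passed for 3211 members that were more positive in labelled Btg4-/- and 1699 that were more negative. The scatter of the 2 maturations shows both groups, and Pearson r across the 9771 genes, which are not independent, was 0.482.

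**Figure D4:**
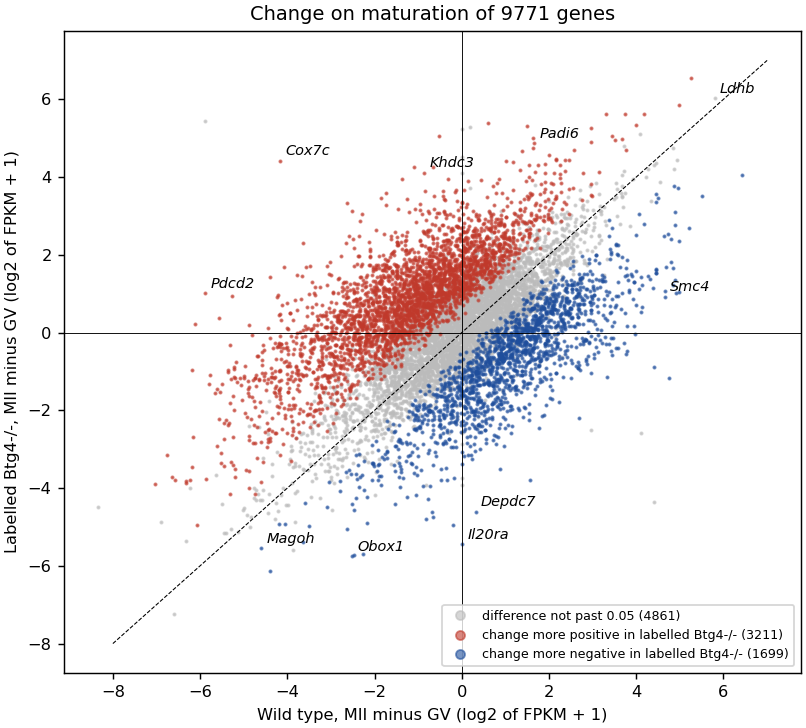
Change from GV to MII in labelled Btg4-/- (y axis) against that in wild type (x axis), both on the log2(FPKM + 1) scale, 1 dot per member, with the dashed line where both are equal. Red dots (3211) changed more positively and blue dots (1699) more negatively in labelled Btg4-/-, and Cox7c lies at 4.42 and -4.16 while Ldhb lies near the line at 6.03 and 5.80.

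Large differences between the genotypes also lay outside these lists. Pdcd2, an adaptor of ribosomal protein assembly, went from 104 and 90.9 to 181 and 213 FPKM in labelled Btg4-/- and from 70.5 and 67.2 to 0.400 and 0 in wild type. Chchd2, a mitochondrial intermembrane protein gene, went from 92.5 and 89.7 to 916 and 942 FPKM and from 159 and 158 to 21.6 and 28.4 in wild type (difference of changes 5.97, SE 0.23, adjusted p = 7.12e-09). Depdc7 went from 458 and 441 to 18.6 and 16.4 FPKM, while wild type was at 423 and 467 and then 507 and 602 (-4.92, SE 0.23, adjusted p = 2.47e-08). Nup54, a nucleoporin gene, went from 56.8 and 64.5 to 2.84 and 6.46 FPKM, against a rise to 87.5 and 109 in wild type. In these genes the MII libraries of the genotypes do not overlap, which their choice by the size of the difference favoured. The hemoglobin genes Hba-a1 and Beta-s also had large negative differences, but through 44.5 to 66.1 and 25.1 to 31.1 FPKM in the wild-type MII libraries, and the part of blood cells was not tested.

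Abundant members fell more often. Members were grouped by their wild-type GV level, from libraries outside the labelled Btg4-/- change. The GV levels of the genotypes correlated closely (Pearson r 0.967), so the groups are not independent of that change and are a description only. Members under 1 FPKM in wild-type GV are left out of this comparison because the member rule then favours a high value at MII. Among 1952 members at 20 to 100 FPKM in wild-type GV, 35% rose and 33.2% fell in labelled Btg4-/-. Among 717 at 100 to 500 FPKM, 30.5% rose and 47.6% fell. Among 149 at 500 FPKM or more, 12.1% rose and 69.8% fell, with a median change of -1.54. The median change in wild type was lower in the last 2 groups, at -1.40 against -0.43 and at -2.88 against -1.54. By transcript length, the median change in wild type went from -1.06 in the shortest eighth of coding members (216 to 1249 bases) to 0.46 in the longest (5350 bases or more). In labelled Btg4-/- it was 0.11 and 0.21 at these ends and at most 0.49 between them. Of the shortest eighth 52.7% fell in wild type and 26.8% in labelled Btg4-/-. Correction for length changed the counts in labelled Btg4-/- to 2916 rises and 2523 falls.

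Levels after fertilization come from libraries that are no part of the maturation contrast, although they enter the gene filter and the pooled spread of the fit. Median levels in the zygote were near those at MII. The 683 members that fell 4-fold or more had median levels of 47.6 FPKM at GV, 5.96 at MII, 6.30 in the zygote and 21.6 at the 2-cell stage in labelled Btg4-/-. The 852 that rose 4-fold or more had medians of 4.59, 34.7, 35.0 and 17.8 FPKM at these stages. Wild type had a similar course, with medians of 46.1, 9.98, 10.6 and 17.6 FPKM for the members that fell. For the members that rose its medians were 7.31, 15.7, 20.1 and 15.4 FPKM. Across members, Pearson r of the levels was 0.954 between labelled Btg4-/- MII and zygote, 0.776 between labelled Btg4-/- GV and MII, 0.967 between the GV groups of the genotypes and 0.750 between their MII groups. The plot of 8 members over the stages shows Oosp1, Depdc7, Btg4 and Orc6 low at MII and zygote and higher at the 2-cell stage in labelled Btg4-/-.

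**Figure D5:**
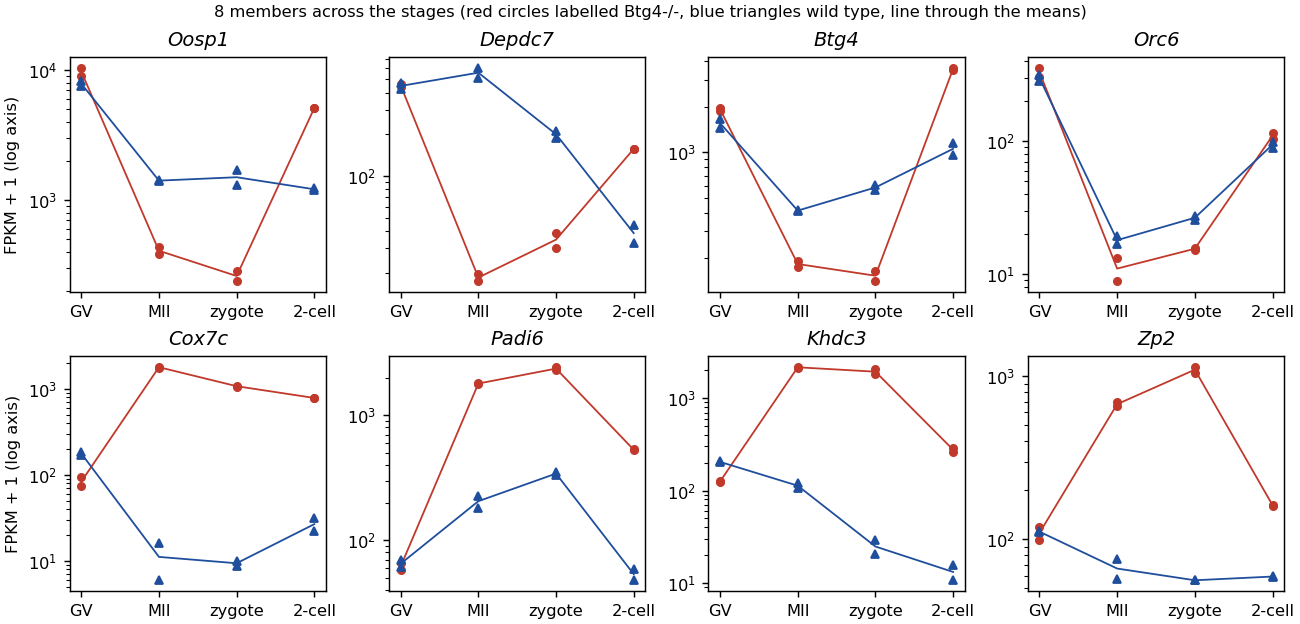
FPKM + 1 (log axis) of 8 members at GV, MII, zygote and 2-cell stage, with both libraries of labelled Btg4-/- as red circles, those of wild type as blue triangles and lines through the means. Btg4 itself falls from a mean of 1930 FPKM at GV to 181 at MII in labelled Btg4-/- and stands at 3573 at the 2-cell stage, and Cox7c stands at 1769 FPKM at MII in labelled Btg4-/- and at 10.2 in wild type.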

How the data were processed

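RNA-seq libraries of purified mRNA were read as FPKM tables deposited by the authors, 1 per library, aligned to mm9. CASAVA 1.8, TopHat and Cufflinks are named in the submitters' processing notes, with no version for the last 2. Loci with the same gene symbol were summed. Group means of log2(FPKM + 1) were fitted with limma 3.58.1 in R 4.3.3 over all 16 Btg4-experiment libraries, with 8 residual degrees of freedom and a variance trend, for the 12311 genes with a mean of 1 FPKM or more in at least 1 of 8 groups, and p-values were adjusted over all of them by Benjamini-Hochberg with a threshold of 0.05. With 2 libraries a group an exact permutation test of a single gene cannot reach that threshold. The deposited FPKM is a relative level, and depth is known only through the deposited intervals. The difference between genotypes was the interaction contrast. The fit was tested on simulated data.

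The members, the 27 gene lists and the tests were chosen with earlier results of these data known. Genes were named by a rule: the 12 largest rises and falls with separated libraries and 20 FPKM or more, the 8 largest differences from wild type in each direction, per list the 2 largest rises and falls and the highest member that did not pass, the 5 highest members that did not pass across all members, and Btg4, Rn45s and Malat1. Other members of the lists, such as Zp2, Khdc3, Tle6, Ccnb1, Cnot6l and Top1, were named after their values were seen, and some genes that the rule names are not reported here. Transcript ends came from GENCODE M21 (GRCm38), in which 9699 members matched by symbol. Pseudocount, filter, scaling, fit, replicate block and each library were varied. The correction for transcript length was chosen after seeing the data.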

Additional observations from a re-analysis of the deposited data

Results flagged for a closer look

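The change from GV to MII differed between labelled Btg4-/- and wild type, by the test of the difference itself, for 3211 members in the positive and 1699 in the negative direction. The groups of genes involved are described above, and the members with the largest differences are given here.

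Of the 8 named genes with the largest positive differences, 5 encode mitochondrial or proteasome proteins. The differences on the log2(FPKM + 1) scale were 8.58 for Cox7c, 5.97 for Chchd2, 5.94 for Psmb7, 5.93 for Sdhd and 6.21 for Tmem126a. Pdcd2 had 6.89, Atp6v0c 6.33 and Tmem256 5.84. Atp6v0c, a subunit of the proton pump of lysosomes, rests on replicates that differ about as much as the stages: it stood at 64.4 and 32.6 FPKM at GV and 75.6 and 37.5 at MII in labelled Btg4-/-, and at 0.00142 and 0.00120 FPKM at MII in wild type. Values of Atp6v0c near 0 recur, at 0.00159 and 0.00219 FPKM in the wild-type 2-cell libraries and at most 0.00102 in the 4 Erk libraries. The wild-type zygote libraries gave 5.64 and 52.7 FPKM, so single values of this gene are uncertain. Tmem126a was listed at 0 in both wild-type MII libraries and at 99.4 and 104 FPKM in those labelled Btg4-/-.

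The largest negative differences were -5.92 for Hba-a1, -5.45 for Il20ra, -5.28 for Beta-s, -4.92 for Depdc7, -4.89 for Hat1, -4.76 for Malat1, -4.47 for Dbt and -4.41 for Nup54. Dbt, of the branched-chain keto acid dehydrogenase, went from 1.76 and 1.53 FPKM to 0.334 and 0.0653 in labelled Btg4-/- and from 3.18 and 2.76 to 34.7 and 43.2 in wild type. Hba-a1 is itself one of the 9 blood cell markers and makes up 66.1 of 85.0 and 44.5 of 50.3 FPKM of their sum in the wild-type MII libraries. Il20ra was above 0 only in the labelled Btg4-/- GV libraries among the 8 oocyte libraries compared.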

How the results depend on the processing

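The counts of members that rose, fell or differed from wild type stayed within 1.5 times of those reported under every alternative run. No member called as rising or falling in labelled Btg4-/- passed in the opposite direction. Turned directions were not counted for the difference from wild type. Over the alternatives other than leaving out a library, rises numbered 2610 to 3315 and falls 1963 to 2961. Without 1 of the 4 labelled Btg4-/- libraries, rises numbered 2648 to 2935 and falls 1796 to 1935. The replicate numbers did not pair the samples (correlation of deviations 0.0326 in labelled Btg4-/-), and with the replicate number as a block 3315 rose and 2169 fell. With median-of-ratios scaling Sdhd was at -0.04, Spin1 at -0.05, and the medians were -0.16 for mRNA decay factors, -0.18 for meiotic kinases, -0.32 for spindle factors, -0.10 for complex I, -0.22 for translation factors and -0.15 for histone-modifying enzymes, each positive as reported. Quantile normalization gave -0.06 for decay and -0.13 for spindle factors. The length correction gave -0.03 for decay, -0.21 for spindle and -0.06 for translation factors. Rn45s was at 0.45 without GV replicate 2 and at -0.46 without GV replicate 1. The calls of Dcp2, Dnmt1, Esco2, Sdhd, Smc4, Spin1, Tet3, Top1, Zar1l, Dbt and Pdcd2 in labelled Btg4-/- were each lost in at least 1 alternative. In reverse, H3f3a, Plac8, Rn45s, Hba-a1, Rpl27, Zbed3, Psma7, Tmem126a and Tmem256, which did not pass as reported, each passed in at least 1 alternative. The cause was not tested. The share of genes with the hexamer was 22.9% to 24.9% among those that fell and 9% to 10.4% among those that rose, with windows of 50 and 200 bases giving 13.9% and 5.02%, and 35.7% and 16.4%. Genes under a few FPKM rest on few fragments.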
